A study of Rattus norvegicus with 4 samples.

Results

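The T-box transcription factors are described here in nuclei of 2 rat fat depots, by 8 genes: Tbx15, Tbx18, Tbx20, Tbx1, Tbx2, Tbx3, Tbx4 and Tbx5. They are 8 of the 17 T-box family genes looked up by symbol and of the 32883 genes counted. The 8 were selected on measured values, namely their UMIs (unique molecular identifiers, each standing for 1 captured transcript) summed per library and cell class and compared between the depots. Their differences between the depots are therefore given as a description, with no test. Levels are given as CPM, the UMIs of a gene per 1000000 UMIs of the same class and library. The nuclei came from snap frozen tissue of naive male Dahl SS rats (strain SS/HsdMcwiCrl, labelled normal), aged 16 weeks. The taPVAT group is perivascular adipose tissue of the thoracic aorta, and the BAT group is subscapular brown adipose tissue. Each group has 2 libraries, and the design names 2 rats for each tissue. No rat was treated, and all carried the same salt-sensitive strain background. The labels do not say whether 1 rat gave both tissues, nor what a replicate number stands for beyond its own library.

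T-box factors bind DNA through a shared domain, the T-box, and act as activators or repressors in the patterning of limbs, heart, vessels and mesoderm. Tbx15 is known in adipose tissue as a depot-dependent gene of preadipocytes and adipocytes that has been tied to brown and beige fat programmes, and in development it acts with Tbx18 in skeletal elements. Tbx18 marks mural cells of many organs and the mesothelium, Tbx5 is best known from heart and forelimb, Tbx2 and Tbx3 are mostly repressors, Tbx1 acts in the pharyngeal region and in lymphatic vessels, Tbx4 in the hindlimb and Tbx20 in the heart.

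RefSeq (build GRCr8) gives a promoter window of 300 bases, from 250 before to 50 after the start, for 6 of the 8 genes; Tbx2 and Tbx3 were not matched. The windows of Tbx15, the gene whose level differed most between the depots, and of Tbx18 and Tbx5, which among the 5 classes were highest in pericytes, are printed to show what surrounds these starts. Capitals mark matches to the CCAAT box on either strand (CCAAT or ATTGG). The first window is chr2:189265123-189265422 on the + strand, the second chr8:97559916-97560215 on the - strand and the third chr12:42395310-42395609 on the - strand.
Tbx15: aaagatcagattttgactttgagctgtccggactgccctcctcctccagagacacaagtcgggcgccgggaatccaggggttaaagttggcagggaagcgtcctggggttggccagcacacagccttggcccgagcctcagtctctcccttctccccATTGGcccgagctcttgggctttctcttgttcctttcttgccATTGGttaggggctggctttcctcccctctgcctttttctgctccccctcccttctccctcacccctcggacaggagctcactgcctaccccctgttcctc
Tbx18: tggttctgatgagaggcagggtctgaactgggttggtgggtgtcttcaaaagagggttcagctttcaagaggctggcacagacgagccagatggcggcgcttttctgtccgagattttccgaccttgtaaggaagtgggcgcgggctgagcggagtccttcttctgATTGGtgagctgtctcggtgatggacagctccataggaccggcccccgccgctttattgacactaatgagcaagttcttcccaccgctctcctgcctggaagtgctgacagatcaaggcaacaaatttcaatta
Tbx5: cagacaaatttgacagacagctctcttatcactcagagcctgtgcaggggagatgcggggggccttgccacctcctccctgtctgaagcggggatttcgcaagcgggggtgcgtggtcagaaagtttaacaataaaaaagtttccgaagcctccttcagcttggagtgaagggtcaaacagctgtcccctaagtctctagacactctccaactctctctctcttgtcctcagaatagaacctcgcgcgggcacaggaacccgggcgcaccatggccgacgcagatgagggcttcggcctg

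The Tbx15 window holds 2 CCAAT matches, the Tbx18 window 1 and the Tbx5 window none, while 37.5% of all 33469 promoter windows of this length hold at least 1. None of the 3 holds the short T-box site AGGTGT on either strand, which 13.6% of all windows hold. The GC box, searched as GGGCGG on both strands, is found in 33.1% of all windows and in none of the 3. The TATA box, searched as TATAAA on both strands, is found in 14.2% of all windows and in none of the 3. No motif of the 4 is contained in another. The GC content is 59.3% for Tbx15, 54.0% for Tbx18 and 56.0% for Tbx5, against a median of 51.7% over all windows. The ratio of observed to expected CpG is 0.32 for Tbx15, below 0.60 for both Tbx18 and Tbx5 and below the median of 0.39. A match is a string of letters, and the counts measured here say nothing of binding.

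The 4 libraries held 63654436 to 158140959 UMIs. After filters, 11520 to 38350 nuclei per library remained, and the median nucleus of a class held 1908 to 4808 UMIs. Nuclei were put into adipocyte, fibroblast, smooth muscle, pericyte and endothelial classes by the number of marker genes they held, with no T-box gene among the markers. The classes held 7513 to 23830 adipocyte, 612 to 1559 fibroblast, 31 to 229 smooth muscle, 336 to 1100 pericyte and 532 to 3551 endothelial nuclei per library. Defining markers of the 4 other classes followed the class names. Of the adipocyte markers, Plin1 was highest in adipocytes in each library, at 1404 to 2689 CPM against 740.9 to 1953 CPM elsewhere. Adipoq was at 228.3 to 381.2 CPM in adipocytes and at 188.4 to 365.7 CPM elsewhere. In taPVAT replicate 2 Adipoq was higher in fibroblast and endothelial nuclei than in adipocytes. Pdgfra lay at 73.7 to 111.5 CPM in fibroblasts and at 0.715 to 1.16 CPM in adipocytes, Rgs5 at 411.3 to 818.5 CPM in pericytes and Cdh5 at 89.25 to 179.7 CPM in endothelial nuclei. Myh11 lay at 2329 to 2848 CPM in smooth muscle and at 354.4 to 699.3 CPM in pericytes, so the mural classes were less sharply parted. Of the nuclei gated as smooth muscle 58.65% lay in a cluster of that name. That share was 64% for endothelial nuclei, 74.73% for fibroblasts and 88.97% for pericytes. In adipocyte clusters lay 23.31% of smooth muscle, 17.57% of fibroblast, 9.405% of endothelial and 6.235% of pericyte nuclei. RNA of adipocytes was present in every class. The 12 adipocyte markers summed to 20780 to 21730 CPM in adipocytes and to 13270 to 17760 CPM in the other 4 classes, in which the median marker reached 59.42% to 83.72% of its adipocyte level. Pnpla2 was the marker at 0 in some of these sums, and no other adipocyte marker was. A pair of libraries shared 93 to 381 cell barcodes, at most 1.19% of the smaller one. If drawn at random 48.64 to 218.6 would be shared, and each pair was above its expected number. An SD measures the spread between 2 libraries, which may be partly technical. Each SE of a log2 value came from the edgeR fit, which estimates the spread with the help of all genes tested.

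Tbx15 (ENSRNOG00000019565) was lower in both taPVAT libraries than in both BAT libraries in each of the 5 classes. Tbx15 had the same order in the myeloid and T or NK lymphocyte clusters given below. Its level in fibroblasts, with replicate 1 named first here and below, was 17.0 and 19.0 CPM for taPVAT but 179.8 and 150.7 CPM for BAT. The means were 18.0 ± 1.39 CPM (SD, n = 2) and 165 ± 20.6 CPM (SD, n = 2), a log2 fold change of taPVAT over BAT of -3.22 ± 0.25 (SE). The libraries of each depot lay close together, and the lowest BAT value was far above the highest taPVAT value. Pericytes had 8.94 and 4.0 CPM in taPVAT, far under the 89.8 and 76.5 CPM of BAT, and the log2 fold change was -3.57 ± 0.38 (SE). In smooth muscle it was 15.3 and 0 CPM in taPVAT and 98.8 and 69.4 CPM in BAT (log2 fold change -2.76 ± 0.58, SE). The 0 rests on 31 nuclei with 116759 UMIs, where a count of 0 allows up to 25.7 CPM (3 UMIs), so it does not set that library apart from taPVAT replicate 1 at 12 UMIs. Without taPVAT replicate 1 the taPVAT side of the smooth muscle comparison has 0 UMIs, and no fold is given.

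In adipocytes the Tbx15 level was 9.42 and 2.93 CPM in taPVAT and 49.7 and 16.3 CPM in BAT, with a log2 fold change of -2.38 ± 0.70 (SE). The BAT libraries stood apart from each other here, and dropping BAT replicate 1 brought the log2 fold change to -1.48, dropping taPVAT replicate 1 to -3.42. In endothelial nuclei it was 7.32 and 1.73 CPM in taPVAT and 33.0 and 16.1 CPM in BAT (log2 fold change -2.19 ± 0.59, SE). Dropping BAT replicate 1 gave -1.66, and dropping taPVAT replicate 1 gave -3.84. Since both taPVAT values lay under both BAT values in each class, leaving out 1 library could not turn the order, and no support is read from it. Adipocyte nuclei of the 4 libraries lay largely in different clusters. Cluster 0 held 12147 nuclei of taPVAT replicate 1 and 257 of BAT replicate 1, cluster 4 held 596 and 8997, cluster 5 held 6491 of taPVAT replicate 2 and 341 of BAT replicate 2, and cluster 1 held 952 and 11369. The part of these clusters in the adipocyte values was not tested. Within BAT the order of the classes was fibroblast first, then smooth muscle and pericyte, whose ranges overlapped, then adipocyte and endothelial, whose ranges overlapped too.

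**Figure D1:**
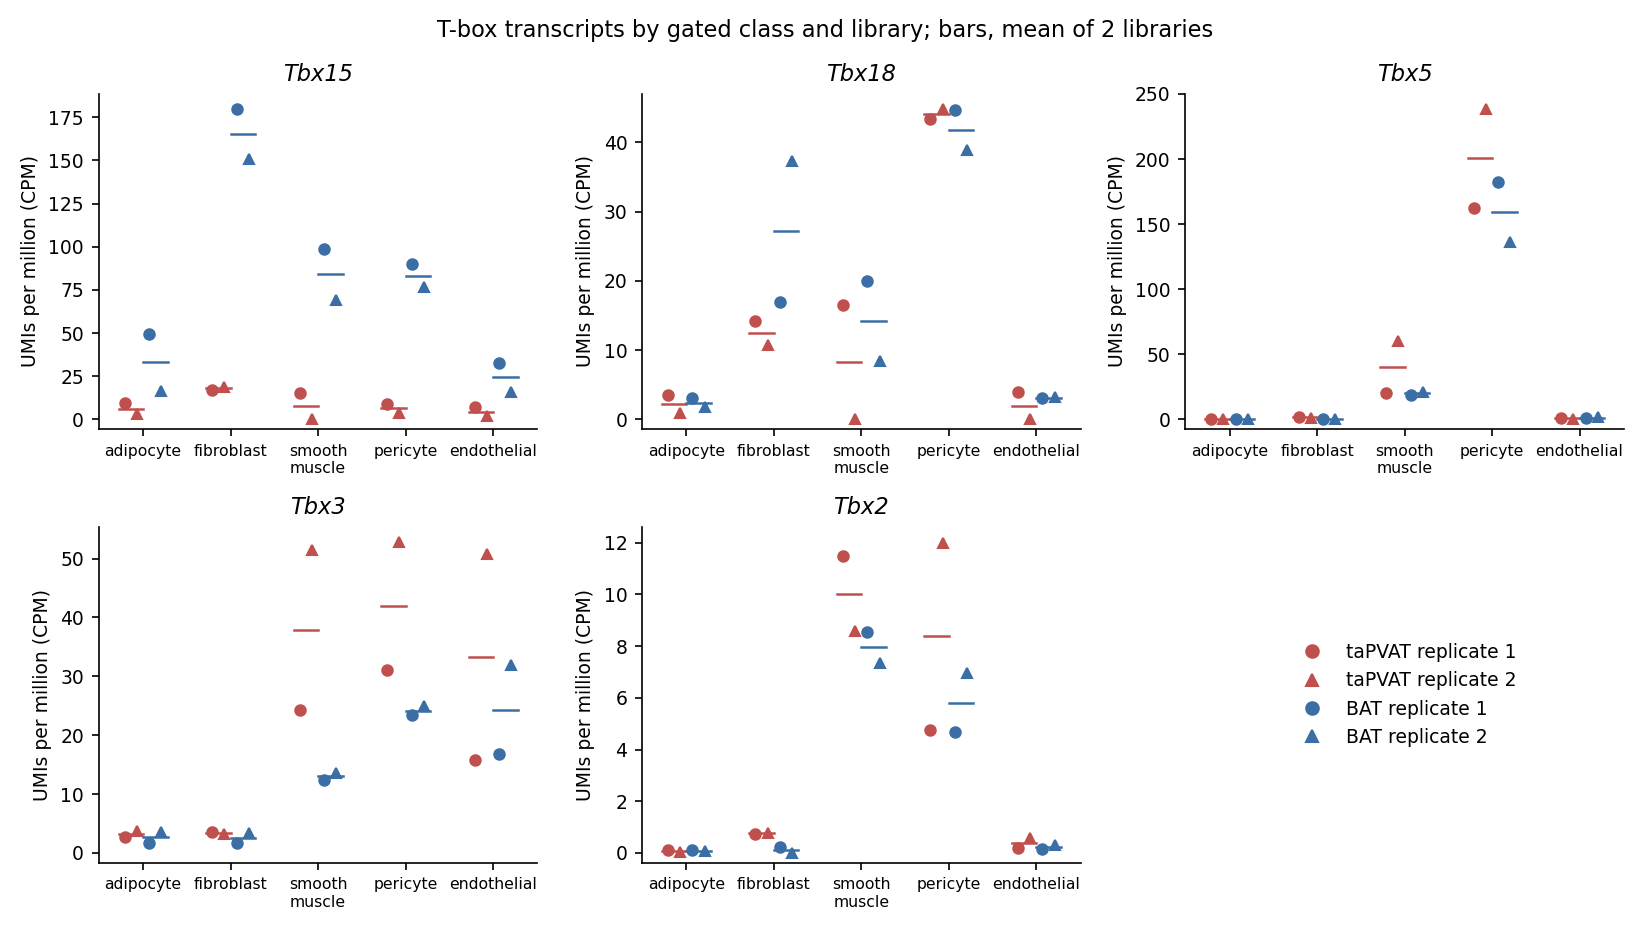
Levels of 5 T-box genes (CPM, vertical axis, from 0) in 5 classes of nuclei (horizontal axis). Each point is 1 library (red, taPVAT; blue, BAT; circle, replicate 1; triangle, replicate 2) and each bar the mean of 2 libraries. Tbx15 reached 179.8 CPM in BAT fibroblasts against at most 19.0 CPM in taPVAT, and Tbx5 was at 136 to 238 CPM in pericytes of all 4 libraries.

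Since free RNA can add UMIs to every nucleus, Tbx15 in a class was set against adipocytes and immune cells of the same library. The amount of free RNA was not measured. The fibroblast level was 1.81 and 6.47 times the adipocyte level in taPVAT replicates 1 and 2, and 3.62 and 9.22 times in BAT. For pericytes the ratios were 0.95, 1.36, 1.81 and 4.68 in the same order, and for smooth muscle 1.62, 0, 1.99 and 4.25. For endothelial nuclei they were 0.777, 0.591, 0.663 and 0.984, so Tbx15 was below the adipocyte level in 4 of 4 libraries. Myeloid nuclei, which should lack this mesenchymal gene, gave 0.568, 0, 0.599 and 0.894. T or NK lymphocyte nuclei gave 0.777, 2.03, 0.652 and 0.680, where the 2.03 rests on 1 UMI; the larger T or NK lymphocyte cluster of that library was at 1.98 CPM, also on 1 UMI. The endothelial values are thus in the range of the background and are not read as expression in endothelium. The same holds for Tbx15 in pericytes of taPVAT, at or near the adipocyte level. The adipocyte level itself lay close to that of immune clusters in 3 libraries. In taPVAT replicate 1 it was 9.42 CPM against 10.3 CPM in the B lymphocyte cluster (8 UMIs) and 7.43 CPM in the myeloid cluster, and in taPVAT replicate 2 it was 2.93 CPM against 3.28 CPM in the myeloid cluster. In BAT replicate 2 it was 16.3 CPM against 15.2 CPM in the myeloid, 16.6 CPM in the T or NK and 19.6 CPM in the B lymphocyte cluster (5 UMIs). By the levels of these immune clusters Tbx15 in adipocytes of these 3 libraries cannot be told apart from background. The T or NK cluster of taPVAT replicate 1 was lower than adipocytes, at 6.32 CPM. Endothelial cluster 8 was lower too, at 2.96 CPM in taPVAT replicate 1 (7 UMIs) and 2.57 CPM in BAT replicate 2 (4 UMIs). In taPVAT replicate 2 that cluster had 0 UMIs in 318 nuclei. In BAT replicate 1 the myeloid and T or NK clusters were at 34.6 and 34.0 CPM, under 49.7 CPM in adipocytes. Both clusters were thus lower in taPVAT than in BAT, as adipocytes and endothelial nuclei were. The part of free RNA in the depot differences of adipocytes and endothelial nuclei was not tested. Nor was the part of gated nuclei of other classes that lay in adipocyte clusters.

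The share of nuclei with at least 1 Tbx15 UMI was, among the 5 classes, highest in fibroblasts and lowest in endothelial nuclei of both BAT libraries, as the level was. In taPVAT replicate 1 smooth muscle was above adipocytes by level but below them by the thinned share described next (0.526%, on 1 nucleus, against 0.942%). With each nucleus thinned to 1000 UMIs, which left out 69 and 6 fibroblast nuclei of taPVAT and 22 and 18 of BAT as too shallow, 21.15% of fibroblast nuclei in BAT replicate 1 held a Tbx15 UMI (95% Wilson interval 18.8% to 23.7%) and 16.2% in BAT replicate 2 (13.4% to 19.3%). In taPVAT the shares were 1.34% (0.871% to 2.06%) and 1.07% (0.519% to 2.19%). Without thinning they were 42.8% and 31.5% in BAT and 5.13% and 5.45% in taPVAT. In BAT pericytes the thinned shares were 7.32% and 7.18%, and in BAT smooth muscle 11.5% and 10.8%. In BAT adipocytes they were 4.69% and 1.71%, in BAT endothelial nuclei 2.39% and 0.719%, and in BAT myeloid nuclei 1.97% and 0.402%, the last 2 classes at unthinned median depths of 1973 and 1908 UMIs against 2097 and 1718 UMIs. These intervals, and the upper limits given for zeros, reflect counting error alone. The myeloid shares rest on 9 nuclei and 1 nucleus with a UMI (95% Wilson intervals 1.04% to 3.71% and 0.0709% to 2.24%), and these intervals hold both endothelial shares and the adipocyte share of BAT replicate 2. Fibroblast, smooth muscle and pericyte shares in both BAT libraries, and the adipocyte share of BAT replicate 1, lay above them. In taPVAT 0 of 386 and 0 of 296 thinned myeloid nuclei held a Tbx15 UMI. Their upper limits of 0.985% and 1.28% lie above the taPVAT adipocyte shares given next. The adipocyte share was above the endothelial share in each library, at 0.942% and 0.280% against 0.244% and 0.194% in taPVAT. Their 95% Wilson intervals were apart in all but taPVAT replicate 2 (0.183% to 0.428% against 0.0342% to 1.09%).

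**Figure D2:**
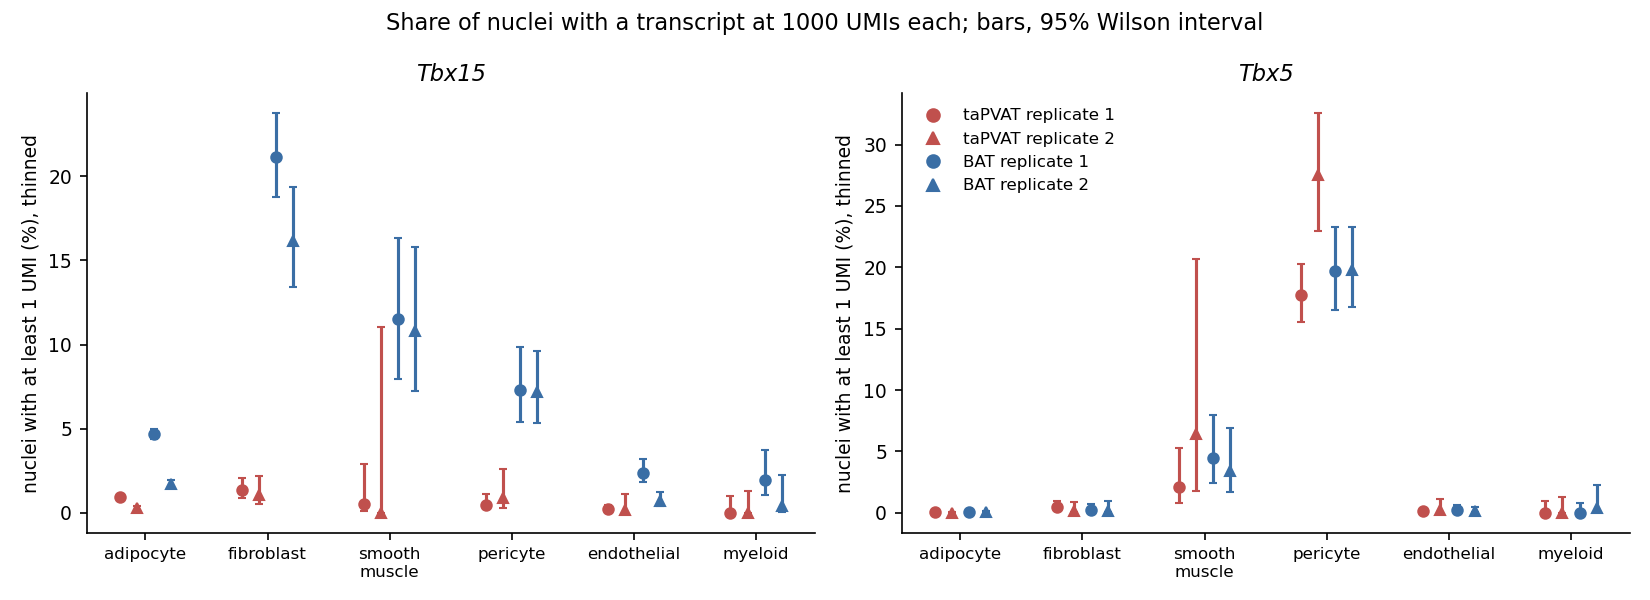
Share of nuclei (%, vertical axis) with at least 1 UMI of Tbx15 (left) or Tbx5 (right) after thinning to 1000 UMIs, by class (horizontal axis), with the myeloid class as background. Points are libraries (red, taPVAT; blue, BAT) and bars 95% Wilson intervals. Tbx15 stood at 16.2% and 21.15% in BAT fibroblasts, and Tbx5 at 17.8% to 27.5% in pericytes of all libraries.

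Tbx15 was lower in both taPVAT than in both BAT libraries in both subsets of fibroblasts and of adipocytes that were looked at. The endothelial clusters described below did not all have this order. In cluster 8 the depots overlapped, at 2.96 and 0 CPM in taPVAT and 13.3 and 2.57 CPM in BAT. They overlapped too in cluster 22 (3.96 and 0 against 47.5 and 0 CPM). In cluster 16 they did not (5.85 and 0 against 22.5 and 8.67 CPM). These endothelial values rest on 0 to 24 UMIs each. For adipocytes of all but BAT replicate 1 the levels lay near those of the immune clusters given above. Fibroblasts with a UMI of Pi16 or Dpp4, genes of adventitial progenitor-like fibroblasts, had 7.60 and 12.9 CPM of Tbx15 in taPVAT and 120 and 103 CPM in BAT. Those with neither had 22.7 and 22.5 CPM in taPVAT and 187 and 158 CPM in BAT. The level was thus lower in the Pi16 or Dpp4 subset in 4 of 4 libraries, with 12 to 58 UMIs of Tbx15 behind each value in that subset. Its 7.60 CPM in taPVAT replicate 1 lay in the range of the immune clusters of that library (7.43 CPM in myeloid, 10.3 CPM in B lymphocyte). That value is not told apart from background. Adipocytes with a UMI of Ucp1, the uncoupling protein of brown fat, had 9.56 and 3.0 CPM in taPVAT and 49.5 and 15.2 CPM in BAT. Adipocytes without one had 8.0, 2.65, 55.2 and 20.3 CPM in the same order, so the level was higher with a Ucp1 UMI in both taPVAT libraries and lower with one in both BAT libraries, by amounts small beside the gap between libraries of a depot; this was not tested. When classes came from Leiden clusters, Tbx15 in the fibroblast clusters was 23.5 and 47.0 CPM in taPVAT and 235 and 224 CPM in BAT.

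Among the 5 classes, Tbx18 (ENSRNOG00000010685) was highest in pericytes in both depots. Its pericyte level was 43.3 and 44.8 CPM in taPVAT and 44.7 and 38.9 CPM in BAT, and the 4 values overlapped (log2 fold change 0.04 ± 0.26, SE). This order held in 4 of 4 libraries. In fibroblasts it was 14.2 and 10.7 CPM in taPVAT and 17.0 and 37.3 CPM in BAT, which did not overlap (log2 fold change -1.12 ± 0.48, SE). BAT replicate 2 carried that difference, and without it the log2 fold change was -0.40. The fibroblast gate took in 100 nuclei that clustered with mesothelial nuclei, and without them the log2 fold change was -1.35. In smooth muscle Tbx18 was at 16.6 and 0 CPM in taPVAT and 19.96 and 8.41 CPM in BAT. In adipocytes it lay at 1.0 to 3.47 CPM and in endothelial nuclei at 0 to 4.02 CPM.

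Tbx5 (ENSRNOG00000001399) was held mostly by pericytes. Pericytes held 163 and 238 CPM in taPVAT and 182 and 136 CPM in BAT, and the depots overlapped (log2 fold change 0.30 ± 0.29, SE). Pericyte nuclei gave 70.0% to 86.4% of the Tbx5 UMIs in the nuclei kept after filters, although they were 1.93% to 2.92% of those nuclei. After thinning, 17.8% and 27.5% of pericytes in taPVAT and 19.7% and 19.8% in BAT held a Tbx5 UMI, against 0% to 0.402% of myeloid nuclei. Smooth muscle had 20.4 and 60.0 CPM in taPVAT and 19.0 and 21.02 CPM in BAT, on 7 to 20 UMIs per library. The other 3 classes lay at 0.301 to 2.15 CPM.

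Tbx3 (ENSRNOG00000008706) was shared by pericytes, smooth muscle and endothelium. Its pericyte level was 31.0 and 52.8 CPM in taPVAT and 23.4 and 25.0 CPM in BAT (log2 fold change 0.72 ± 0.35, SE), with both taPVAT values above both BAT values. In smooth muscle it was 24.2 and 51.4 CPM in taPVAT and 12.4 and 13.7 CPM in BAT (log2 fold change 1.23 ± 0.57, SE), again without overlap but on 6 to 19 UMIs per library. The pericyte marker Rgs5 was at 24.2 and 59.95 CPM in the smooth muscle class of taPVAT and at 8.55 and 24.2 CPM in that of BAT. The 10 pericyte markers summed to 339 and 694 against 348 and 390 CPM there, and their part in the smooth muscle values of Tbx3 and Tbx5 was not tested. In endothelial nuclei it was 15.7 and 50.9 CPM in taPVAT and 16.7 and 31.9 CPM in BAT, so replicates of a depot differed more than the depots. In all 3 classes taPVAT replicate 2 was the highest library. Leaving that library out brought the log2 fold change in pericytes to 0.31 and turned that in endothelial nuclei from 0.34 to -0.66. Adipocytes and fibroblasts stayed at 1.63 to 3.78 CPM.

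Within endothelium, Tbx3 followed the clusters. Against the other endothelial clusters, cluster 8 was led by Pdcd1lg2, C1qtnf9 and Eya2, with 543 CPM of Kdr against 71.4 CPM. In cluster 8 Tbx3 was at 37.6 and 125 CPM in taPVAT and 32.7 and 77.6 CPM in BAT. In cluster 16, led by Dkk2 and high in Eln and Fn1, it was at 6.69, 31.0, 6.76 and 14.1 CPM in the same order of libraries. Cluster 22, led by Pgm5 and Mctp1, had 7.91, 10.1, 9.51 and 0 CPM on at most 8 UMIs. Tbx3 was thus highest in cluster 8 in 4 of 4 libraries. Kdr encodes a receptor for vascular endothelial growth factor, and Eln and Fn1 encode matrix proteins. These clusters were made from all variable genes, so the comparison is a description.

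Tbx2 (ENSRNOG00000003517) was low and mural. Smooth muscle had 11.5 and 8.56 CPM in taPVAT and 8.55 and 7.36 CPM in BAT, resting on 1 to 9 UMIs per library. Pericytes had 4.75 and 12.0 CPM in taPVAT and 4.67 and 6.95 CPM in BAT, which overlapped (log2 fold change 0.33 ± 0.61, SE). The other 3 classes lay at 0 to 0.791 CPM. In the genome Tbx2 lies next to Tbx4, and Tbx3 next to Tbx5, with no other protein-coding gene of the RefSeq table (GRCr8) between the members of a pair. The 2 neighbours Tbx3 and Tbx5 differed in class: endothelial nuclei had Tbx3 at 15.7 to 50.9 CPM and Tbx5 at 0.578 to 1.55 CPM.

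Tbx1, Tbx4 and Tbx20 did not pass the filter on low counts in any class. Tbx20 (ENSRNOG00000016181) had 8 and 1 UMIs in the whole taPVAT libraries and 2 and 1 in BAT, which is no basis for a comparison. Tbx4 (ENSRNOG00000003544) had 12 and 8 UMIs in taPVAT and 19 and 42 in BAT. Of these, adipocyte nuclei held 8, 5, 6 and 25. Tbx1 (ENSRNOG00000001892) had 82 and 15 UMIs in taPVAT and 11 and 11 in BAT, of which the endothelial class held 13, 2, 2 and 1. Its level in the 5 classes was at most 1.40 CPM.

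Tbx15, Tbx18, Tbx3 and Tbx5 differed between the classes of nuclei. This contrast is not the one between depots that chose them, but it used the same sums. The members were also chosen with earlier results of these data known. The class contrast was tested with edgeR's quasi-likelihood test on 20 sums (5 classes in 4 libraries) with the library as a term. Each class was set against the mean of the other 4, and p was adjusted over 11520 genes. In fibroblasts Tbx15 was higher by 1.57 ± 0.23 on the log2 scale (SE, adjusted p = 3.12e-05) and was the highest of the 5 classes in 4 of 4 libraries. Tbx18 was higher there by 1.18 ± 0.29 (SE, adjusted p = 0.00632), a call that was lost without BAT replicate 2 (0.68, adjusted p = 0.113). Of the 8 members these 2 were called higher in fibroblasts, as were 11.9% of all genes tested. The other 3 of the 8 (Tbx1, Tbx4 and Tbx20) did not pass the filter on low counts, and Tbx2 and Tbx5, low outside the mural classes, passed it through those, so nothing is read from how many members were called in a class. Tbx2, at most 12.0 CPM, is described by its levels alone. The calls of Tbx5 given below held with no filter on low counts. As Tbx5 passed the filter through the classes where it is high, its adjusted p values are given as a description. Tbx15 in smooth muscle (0.50 ± 0.32, SE, adjusted p = 0.456) and in pericytes (0.32 ± 0.27, SE, adjusted p = 0.50) did not pass. In endothelial nuclei it was lower by -1.52 ± 0.28 (SE, adjusted p = 0.000242).

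In pericytes, where 11.5% of all genes tested were called higher, Tbx5 was higher by 6.45 ± 0.17 on the log2 scale (SE, edgeR adjusted p = 7.37e-16), Tbx18 by 2.76 ± 0.27 (SE, adjusted p = 1.87e-07) and Tbx3 by 1.95 ± 0.19 (SE, adjusted p = 9.79e-08). In smooth muscle, where 6.33% of all genes tested were called higher, Tbx5 was higher by 2.77 ± 0.34 (SE, adjusted p = 5.65e-06) and Tbx3 by 1.11 ± 0.29 (SE, adjusted p = 0.0199). The Tbx3 call in smooth muscle was lost in 3 of 4 fits that left out 1 library, with an adjusted p of 0.0745 when taPVAT replicate 2 was dropped, 0.0815 when taPVAT replicate 1 was and 0.111 when BAT replicate 1 was. In endothelial nuclei, where 19% of all genes tested were called higher, Tbx3 was higher by 1.55 ± 0.17 (SE, adjusted p = 3.92e-07). In adipocytes no member was called higher, where 30% of all genes tested were, and Tbx15, Tbx18, Tbx3 and Tbx5 were lower, from -0.86 ± 0.24 (SE, adjusted p = 0.00489) for Tbx15 to -4.11 ± 0.30 (SE, adjusted p = 1.36e-09) for Tbx5. Adipocyte RNA was present in every class, and its part in these differences was not tested.

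**Figure D3:**
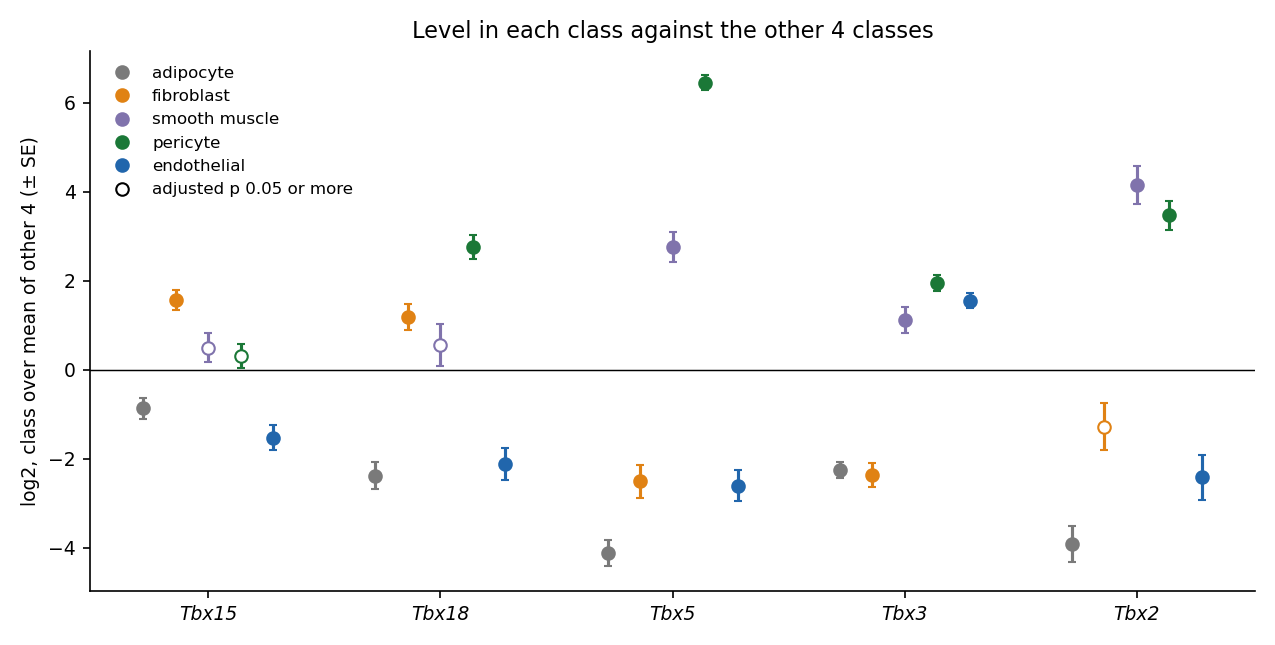
Difference of each class from the mean of the other 4 classes (log2, vertical axis) for 5 T-box genes (horizontal axis); points are fitted values over 4 libraries, bars their SE, open points have an adjusted p of 0.05 or more (Tbx2 is plotted for its size only). Tbx5 stands at 6.45 in pericytes, Tbx15 at 1.57 in fibroblasts, and all adipocyte points lie below 0.

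Between the depots, over all genes, the edgeR test called few genes with 2 libraries against 2. In adipocytes it called 0% of 15149 genes at an adjusted p of 0.05 (0 genes; 320 at an unadjusted p under 0.05, and 57 by DESeq2), while in 19.6% of genes the libraries of the 2 depots did not overlap. In fibroblasts it called 0.0182% (2 genes; 477 unadjusted, 76 by DESeq2) and 25% did not overlap. In smooth muscle it called 0% (147 unadjusted, 1 by DESeq2) and 26.4% did not overlap. In pericytes it called 0% (204 unadjusted, 3 by DESeq2) and 24.5% did not overlap. In endothelial nuclei it called 0% (211 unadjusted, 8 by DESeq2) and 19.8% did not overlap. Members without overlap were 1 of 4 in adipocytes, 2 of 3 in fibroblasts, 2 of 4 in smooth muscle, 2 of 5 in pericytes and 1 of 3 in endothelial nuclei. Tbx15 was among them in each class. As this contrast chose the members, nothing is read from those counts.

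**Figure D4:**
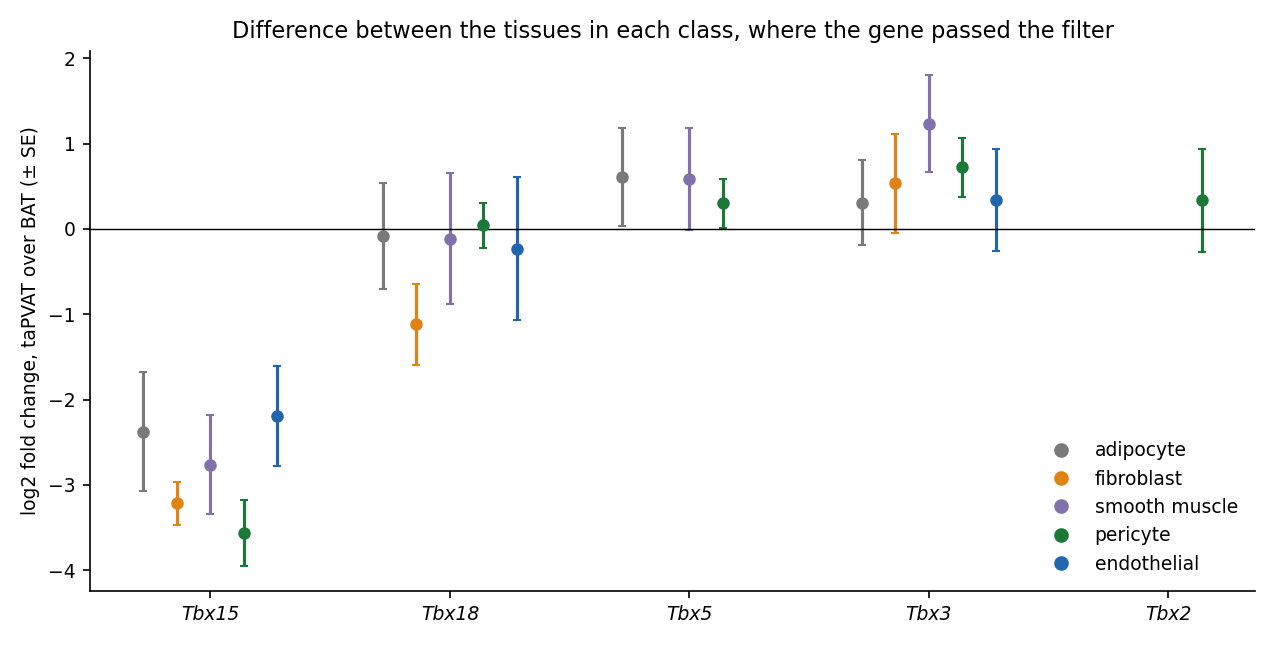
Log2 fold change of taPVAT over BAT (vertical axis) for 5 T-box genes in the classes where each passed the filter; points are edgeR estimates from 2 against 2 libraries and bars their SE. Tbx15 lies between -3.57 and -2.19 in all 5 classes, and Tbx18 in pericytes lies at 0.04.

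Of the other T-box genes, Mga was found in every class and Tbx21 in lymphocytes. Mga is a repressor that carries a T-box and is broadly expressed. It lay at 119.9 to 210.1 CPM in every class and library and overlapped between the depots in all 5 classes. Against the mean of the other 4 classes it was higher in adipocytes by 0.23 ± 0.06 on the log2 scale (SE, edgeR adjusted p = 0.00361), as were 30% of all genes tested, but its highest level was in adipocytes in 2 libraries and in fibroblasts in the other 2. Tbx21, the T-box factor of type 1 lymphocytes, was at 120 and 194 CPM in the T or NK lymphocyte cluster of taPVAT and at 188 and 120 CPM in that of BAT. In adipocytes Tbx21 lay at 0.540 to 1.2 CPM. Tbx6, Tbx10 and Tbx19 passed the filter in adipocytes at 0.378 to 2.36 CPM and overlapped between the depots. Tbx22 had 0 UMIs in all 4 libraries, Tbxt had 1 UMI in 1 library, and Tbr1 and Eomes had 3 to 10 per library.

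Partners, cofactors and developmental neighbours of T-box factors were compared between the depots as a list of 41 genes. Of 23 tested in adipocytes, none was called by edgeR, 7 lay below 0.05 before adjustment and DESeq2 picked 5, among them Shox2, Lmx1b, Pax9 and Foxc1. The libraries did not overlap for 13 of the 23, against 19.6% of all genes tested, with 5 higher and 8 lower in taPVAT; nothing particular to the list is read from this. The 23 had a median log2 fold change of -0.11 against 0.01 over all genes. Shox2, a limb homeobox gene, was at 0.193 and 0.232 CPM in taPVAT adipocytes and 2.82 and 2.50 CPM in BAT (log2 fold change -3.62 ± 0.45, SE, edgeR adjusted p = 0.377). Pax9, a paired box gene, was at 0.602 and 0.489 CPM against 0.0251 and 0.0420 CPM in BAT, on 2 UMIs in each BAT library. Both are low, and free RNA of other nuclei may enter these sums.

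In fibroblasts none of 19 tested partners was called, with 4 at an unadjusted p under 0.05 and 0 by DESeq2. Shox2 was at 1.07 and 0.396 CPM in taPVAT and 5.13 and 4.78 CPM in BAT, and Lmx1b, a limb homeobox gene, at 3.40 and 0.791 CPM against 14.5 and 9.09 CPM. Gata4, a zinc finger factor that works with T-box factors in the heart, was at 3.22 and 4.75 CPM in taPVAT and at 0.233 and 0 CPM in BAT. The mesothelial markers summed to 73.3 and 112 CPM in taPVAT fibroblasts and to 0.933 and 2.39 CPM in BAT fibroblasts; their part in the Gata4 values, and in those of other genes in this class, was not tested. In pericytes and endothelial nuclei Lmx1b was below BAT in both taPVAT libraries, at 2.24 and 4.0 against 8.31 and 6.49 CPM and at 2.23 and 0 against 9.21 and 5.41 CPM. In adipocytes Lmx1b was at 2.95 and 3.50 against 13.9 and 8.02 CPM. The part of adipocyte RNA in the Lmx1b values of the other classes was not tested. Gata6 in pericytes was at 5.59 and 5.60 CPM in taPVAT against 1.56 and 2.32 CPM in BAT. The mesothelial markers summed to 12.3 and 7.20 CPM in taPVAT pericytes and to 2.08 and 1.39 CPM in BAT pericytes. Their part in the Gata6 values was not tested. In endothelial nuclei Foxc1, a forkhead gene, was at 3.66 and 6.94 CPM against 2.76 and 2.63 CPM, and Smarcd3, a chromatin remodelling subunit, at 8.30 and 8.09 against 7.98 and 5.10 CPM. The 8 lymphatic markers summed to 74.1 and 84.4 CPM in the endothelial class of taPVAT and to 18.1 and 43.6 CPM in that of BAT, and their part in these values was not tested. Meox2 in pericytes was at 113 and 109 CPM against 149 and 119 CPM. In smooth muscle the 3 largest differences without overlap, of Srf, Tle1 and Tle3, were from -0.37 ± 0.61 to -0.14 ± 0.37 (log2, SE), on 1, 8 and 7 UMIs in taPVAT replicate 2, so no order is read there. In smooth muscle 0 of 12 tested partners reached an unadjusted p under 0.05, in pericytes 2 of 16 and in endothelial nuclei 1 of 16. None was called by edgeR or DESeq2 in these 3 classes.

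None of the genes known as targets of T-box factors passed the test between the depots. Gja1, a gap junction gene, was higher in both taPVAT than in both BAT libraries in 5 of 5 classes, from 0.24 ± 0.26 (log2, SE) in pericytes to 0.53 ± 0.33 in smooth muscle, none past the test. In adipocytes its levels were 175 and 177 CPM in taPVAT and 122 and 141 CPM in BAT. Adipocyte RNA was present in the other classes, and its part in their Gja1 values was not tested. Bmp4, a signalling ligand, was at 7.70 and 9.49 CPM in taPVAT fibroblasts and 1.87 and 2.39 CPM in BAT (log2 fold change 2.01 ± 0.45, SE, edgeR adjusted p = 0.414). Cacna1g, a calcium channel gene, was at 8.24 and 19.0 CPM against 3.03 and 0.957 CPM there (2.56 ± 0.66, SE, adjusted p = 0.534). The part of the mesothelial markers, at 73.3 and 112 against 0.933 and 2.39 CPM in this class, was not tested. In endothelial nuclei Bmp4 was at 2.77 and 6.94 against 1.84 and 1.39 CPM and Cacna1g at 3.48 and 4.05 against 1.84 and 2.17 CPM, with the lymphatic markers also higher in taPVAT and their part not tested. Wnt5a in pericytes was at 27.1 and 20.8 against 19.2 and 11.6 CPM. Adipocyte RNA was present in pericytes too, and its part in their Wnt5a values was not tested. Bmp2 in smooth muscle had 7 and 1 UMIs in taPVAT against 16 and 20 in BAT, from which no order is read. Of 16 listed targets, 4 to 9 were tested per class and none was called by edgeR or DESeq2; 2 in fibroblasts and none in the other 4 classes had an unadjusted p under 0.05.

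Among 14 regulators and genes of brown and beige fat, Zic1 and Lhx8 were below BAT in adipocytes and fibroblasts of both taPVAT libraries. Zic1, a zinc finger gene known as a marker of classical brown fat, had 0 UMIs in the adipocytes of both taPVAT libraries and 231 and 93 UMIs in those of BAT (2.90 and 1.95 CPM). Against a floor of 3 UMIs over the taPVAT group it was at least 103-fold lower in taPVAT adipocytes and at least 15.7-fold lower in taPVAT fibroblasts, where BAT had 29 and 8 UMIs. Without taPVAT replicate 1 these bounds were 33-fold and 4.89-fold, and without BAT replicate 1 that in fibroblasts was 10.3-fold. DESeq2 called Zic1 in both classes and edgeR in neither (adjusted p = 0.377 in adipocytes and 0.244 in fibroblasts). Lhx8, a LIM homeobox gene of the same depot signature, was at 17.9 and 14.7 CPM in taPVAT adipocytes and 32.6 and 34.6 CPM in BAT (log2 fold change -1.01 ± 0.27, SE, edgeR adjusted p = 1.0). The libraries did not overlap in fibroblasts (17.4 and 13.1 against 35.0 and 35.4 CPM), pericytes (11.5 and 8.80 against 19.2 and 26.4 CPM) and endothelial nuclei (12.9 and 6.36 against 20.3 and 22.9 CPM) either. Adipocyte RNA was present in these classes, and its part in their Lhx8 values was not tested. In smooth muscle Lhx8 had 14 and 0 UMIs against 19 and 24, and as a count of 0 in taPVAT replicate 2 allows up to 25.7 CPM, no order is read there.

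Ucp1, Prdm16 and Ebf2 overlapped between the depots. Ucp1 in adipocytes was at 952 and 459 CPM in taPVAT and 1552 and 668 CPM in BAT. Prdm16, a coregulator of brown fat identity, was at 56.4 and 80.8 CPM in taPVAT and 60.3 and 72.6 CPM in BAT, and Ebf2, a factor of brown preadipocytes, at 2292 and 1950 CPM against 1949 and 2176 CPM. Cidea, a lipid droplet gene of brown fat, was at 279 and 275 CPM in taPVAT against 368 and 300 CPM in BAT, without overlap (log2 fold change -0.23 ± 0.27, SE). In the other classes Cidea was lower without overlap in smooth muscle, pericytes and endothelial nuclei. Adipocyte RNA was present in these classes, and its part in their Cidea values was not tested. Tmem26, a beige fat marker, was higher in taPVAT fibroblasts at 5.19 and 12.7 against 4.20 and 4.78 CPM. The 3 overlapping genes were named after their values were seen. Of 13 fat regulators tested in adipocytes none was called by edgeR, with 2 at an unadjusted p under 0.05, and the median log2 fold change was -0.01.

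**Figure D5:**
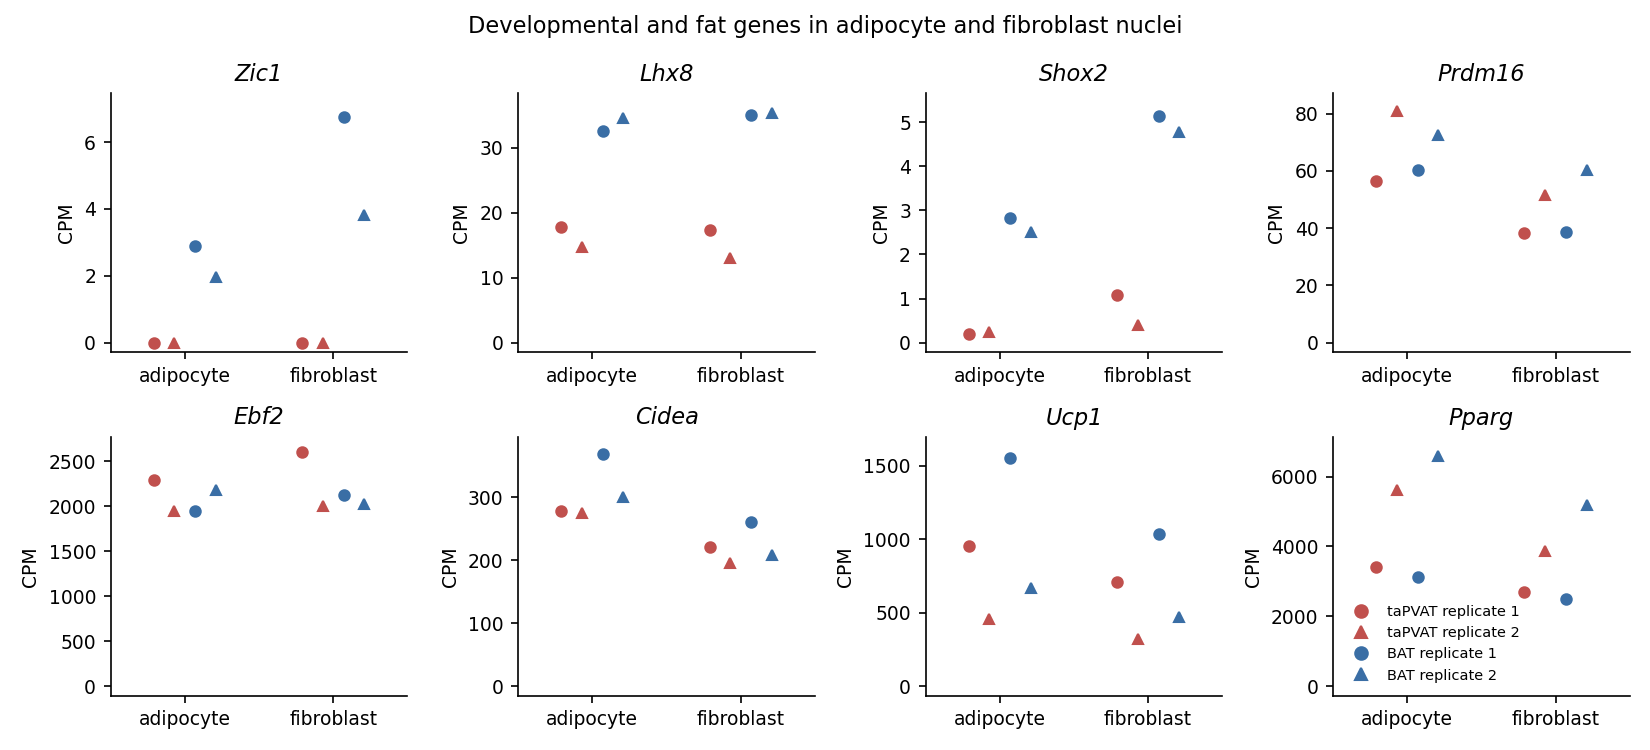
Levels (CPM, vertical axes, from 0) of 8 developmental and fat genes in adipocyte and fibroblast nuclei; each point is 1 library (red, taPVAT; blue, BAT; circle, replicate 1; triangle, replicate 2). Zic1 is at 0 in both taPVAT libraries, Lhx8 at 14.7 and 17.9 CPM against 32.6 and 34.6 CPM in adipocytes, while Ucp1, Prdm16 and Ebf2 overlap.

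Genes beside the members on the chromosome were compared in the same fits. The 2 nearest protein-coding genes on each side of each member in RefSeq (GRCr8) were 24 genes that are not members, and 21 of them were found in the count tables. Of these 12 to 19 were tested per class, none was called by edgeR or DESeq2, and 1 had an unadjusted p under 0.05 (Spring1, counted as RGD1562310, in smooth muscle, at 40.8 and 25.7 against 77.0 and 68.3 CPM). Spring1, 2 genes from Tbx3, was lower in both taPVAT libraries in all 5 classes, with log2 fold changes of -1.0 to -0.37. The neighbours of Tbx15 are Wars2 and LOC120100604 on one side and Spag17 and Wdr3 on the other. In adipocytes Wars2, a mitochondrial tRNA synthetase gene, was at 36.5 and 31.8 CPM in taPVAT and 28.7 and 23.2 CPM in BAT, the opposite order to Tbx15. In fibroblasts Wdr3 was at 20.1 and 21.8 CPM against 23.1 and 25.8 CPM.

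The genes whose levels were most like each member's over the 20 sums were found by Pearson's r of log2(CPM + 1) among 9734 genes with at least 10 CPM in 2 or more sums. The sums share libraries and gates, and may share free RNA, so r is a description. Tbx15 was most like Zfhx4 (r = 0.889), Tbata (0.875), Cxcl14 (0.870), Prkar2a (0.865) and Ccdc186 (0.837). Tbx18 was most like Vwa3b (0.907), Il17rd (0.896), Rab32 (0.886), Adap2 (0.876) and Sarm1 (0.873). Among the 5 genes most like Tbx5 were Neb (0.982), Gabrg1 (0.982), Rgs4 (0.976) and Scn3a (0.974), of which Neb is a skeletal muscle marker of the gate. Tbx3 was most like Col24a1 (0.964), Apold1 (0.956), Esam (0.953), Ada (0.934) and Lcp2 (0.932). Among the 5 most like Tbx2 were Cacna1h (0.970), Trpc4 (0.964), Myh11 (0.963) and Trpc6 (0.962), of which Myh11 is a smooth muscle marker of the gate.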

How the data were processed

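Single nuclei of 4 libraries were sequenced after capture with a 3' kit. The authors deposited raw UMI counts per gene and barcode, made with Cell Ranger 7.1.0 on Rnor_6.0, per the submitters' processing notes. Here barcodes with under 500 detected genes were dropped, and doublets called by Scrublet were removed. The caller marked 0 nuclei in BAT replicate 1, where the 6402 highest-scoring nuclei were removed instead. A nucleus entered a class with at least 3 markers of it and 2 more than of the next class (adipocytes: at least 6 adipocyte markers and at most 1 other); these numbers were set on the data. Clusters came from scanpy 1.11.5 and Leiden. UMIs were summed per class and library and tested with edgeR 4.0.16 (quasi-likelihood, TMM, filterByExpr, Benjamini-Hochberg, threshold 0.05) in R 4.3.3, after the code was tested on simulated data. DESeq2 1.42.0, other filters, gates, a replicate block and leaving out libraries were alternatives. Depth was 63654436 to 158140959 UMIs per library; intervals cover counting error only. Named genes were the 8 members, other T-box genes, chromosomal neighbours, the 5 most similar genes, and list genes past the threshold or among the 3 largest differences without overlap in a class. The members and lists were chosen with earlier results of these data known. Some genes that this rule names are not reported here.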

Additional observations from a re-analysis of the deposited data

Results flagged for a closer look

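Signals of 2 members appeared in clusters not named after the 5 classes, above every level in the 5 classes of the same library. Clusters and gated classes can share nuclei. The mesothelial cluster of 519 nuclei held 100 gated as fibroblast, 93 as adipocyte, 17 as endothelial and 14 as pericyte. Tbx1 was found in the lymphatic endothelial cluster, led by Reln, Ccl21, Mmrn1 and Prox1, at 53.68 and 92.29 CPM in taPVAT replicates 1 and 2 and at 66.39 and 119.3 CPM in BAT replicates 1 and 2. These values rest on 56, 10, 4 and 6 UMIs in 338, 47, 17 and 16 nuclei, so those of BAT are imprecise. Tbx18 was found in the mesothelial cluster, which held nuclei of the taPVAT libraries only, at 69.37 CPM in taPVAT replicate 1 and 59.72 CPM in taPVAT replicate 2, on 95 and 13 UMIs.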

How the results depend on the processing

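The count of genes called between the depots depended on the processing in each class. Without a filter on low counts edgeR called 65 genes in adipocytes, 235 in fibroblasts, 12 in smooth muscle, 43 in pericytes and 69 in endothelial nuclei, and DESeq2 called 57, 76, 1, 3 and 8. The labels do not pair same-numbered libraries; with the replicate number as a block the counts were 365, 271, 47, 34 and 91, and same-numbered libraries deviated together (correlations of 0.745, 0.592, 0.322, 0.470 and 0.568). The lists were chosen with earlier results known and the block assumes a pairing, so no support is read from the list calls that follow. With this block 7 of 23 partners, 2 of 13 fat regulators and 0 of 9 targets were called in adipocytes, against 365 of all 15149 genes. In fibroblasts 3 of 19, 2 of 13 and 1 of 7 were called, against 271 of 11014 genes. In endothelial nuclei 1 of 16, 0 of 12 and 0 of 8 were called, against 91 of 12118 genes. Among them were Zic1 (edgeR adjusted p = 3.19e-08 in adipocytes and 0.0132 in fibroblasts), Lhx8 (0.00137 and 0.0253), Shox2 in adipocytes (3.98e-06), Gata4 (0.0489) and Bmp4 (0.0489) in fibroblasts and Lmx1b in adipocytes (0.000349), fibroblasts (0.0230) and endothelial nuclei (0.0371). In fibroblasts the count of 2 became 5 with doublets kept, 14 under a stricter marker gate, 12 with at least 1000 detected genes and 0 without nuclei of the mesothelial cluster, an alternative chosen after seeing the data. Leaving out 1 library gave 0 to 100 calls in adipocytes, 24 to 61 in fibroblasts, 0 to 32 in smooth muscle, 0 to 62 in pericytes and 0 to 27 in endothelial nuclei. The cause of these shifts was not tested. The mean share of BAT fibroblasts with a Tbx15 UMI was 18.7% thinned and 37.2% not thinned, the deeper nuclei having more UMIs to hold one. Of 218 alternatives for the members' differences between depots, 193 stayed within the spread and 25 moved. Staying within the spread did not mean keeping the sign. For Tbx18 in smooth muscle 9 of 10 alternatives stayed within it, but 6 of 10 kept the sign. As the depot contrast chose the members, no support is read from these counts. Of 175 alternatives for the class contrast, 171 kept their call and 4 lost it. The stricter gate (19 nuclei in the smallest library) and the clusters (15) were not run for smooth muscle, nor the class contrast under the stricter gate. The number of nuclei limits smooth muscle of taPVAT replicate 2, which had 31.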
